A study of Mus musculus with 36 samples.

Results

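The lipid droplet coat and biogenesis genes were 10 genes chosen by name out of 55536 in the count tables: the perilipins Plin1, Plin2, Plin3, Plin4 and Plin5, the CIDE genes Cidec and Cideb, the fat storage-inducing genes Fitm1 and Fitm2, and Bscl2, which encodes seipin. They were followed in RNA sequencing data of 36 libraries from 2 clones of mouse brown pre-adipocytes, numbered 48 and 66. In both clones the endogenous Rxra had been disrupted with Cas9, and a retrovirus then supplied either wild-type RXRα (RxraWT) or RXRα carrying an alanine in place of the serine that insulin signalling phosphorylates (RxraSA), so that no group kept its own receptor and there was no unedited control. Cells were collected when confluent (day 0) and on days 2 and 6 of differentiation. The medium held insulin and triiodothyronine throughout, and for the first 2 days also indomethacin, dexamethasone and isobutylmethylxanthine. Each combination of clone, genotype and day had 3 replicates, which gives 12 groups. Each clone is 1 edited cell line, and pool 1 held the libraries of clone 48 and pool 2 those of clone 66, so that clone and pool cannot be told apart.

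A lipid droplet is a core of triglyceride under a single layer of phospholipid, and it is the organelle that makes an adipocyte an adipocyte. Droplets are born between the leaflets of the endoplasmic reticulum membrane, where seipin forms a ring that gathers triglyceride and the FIT proteins help the lens of fat to bud towards the cytosol. Perilipins then coat the surface and regulate the access of lipases, and CIDE proteins sit where droplets touch and let the smaller one empty into the larger one. Brown adipocytes keep many small droplets, from which fatty acids are burnt for heat, and white adipocytes fuse theirs into a large one.

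In the GRCm38 annotation of the count tables the genes lie as follows, with values taken over all exons of each gene. On the minus strand, Plin1 (ENSMUSG00000030546.14) at chr7:79720218-79732903 and Plin2 (ENSMUSG00000028494.12) at chr4:86648386-86670060 stand alone, and Plin3 (ENSMUSG00000024197.10) at chr17:56277476-56292873, Plin4 (ENSMUSG00000002831.13) at chr17:56100591-56109803 and Plin5 (ENSMUSG00000011305.11) at chr17:56111601-56117596 are near neighbours. Also on the minus strand are Cidec (ENSMUSG00000030278.11) at chr6:113424634-113435760, Cideb (ENSMUSG00000022219.10) at chr14:55754050-55758458 and Fitm2 (ENSMUSG00000048486.6) at chr2:163466379-163472629. On the plus strand are Fitm1 (ENSMUSG00000022215.6) at chr14:55575617-55576954, which is on the same stretch of chromosome 14 as Cideb, and Bscl2 (ENSMUSG00000071657.12) at chr19:8837467-8848683. All 10 are protein-coding.

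The libraries held 11351078 to 24349263 counts each (median 18338726). Levels are given as counts per TMM-scaled library size (CPM), and as CPM per kilobase of exon (RPKM) where different genes are compared. Rxra, which the counts cannot assign to the retrovirus or to the edited locus, had 161 ± 39.8 CPM before differentiation, 542 ± 91.7 at day 2 and 246 ± 53.7 at day 6 (SD, n = 12), and it differed between RxraSA and RxraWT by -0.07, -0.03 and 0.03 on the log2 scale on these days. The 6 adipocyte markers examined summed to 497-1351 CPM at day 0, 6181-8286 CPM at day 2 and then 9001-14493 CPM. Of the 6 markers of brown fat, Ucp1 stayed at or below 0.307 CPM, Prdm16 at or below 1.19, Dio2 at or below 1.30 and Cidea, the CIDE gene of brown fat, at or below 1.66 in every library, so that these defining markers were absent or near absent. Of the other 2, Ppargc1a lay between 10.2 and 31.3 CPM. Ebf2, a transcription factor of brown pre-adipocytes, lay between 16.9 and 78.8 CPM in clone 48 and between 0.143 and 1.40 in clone 66. The 6 together summed to 29.9-46.2, 68.2-101.2 and 62.6-93.3 CPM in clone 48 and 10.7-18.1, 17.2-20.6 and 11.7-26.2 CPM in clone 66 on days 0, 2 and 6, with no overlap of the clones on any day. The 6 markers of pre-adipocytes or fibroblasts, of which Dlk1 and Thy1 stayed under 1 CPM, summed to 737-1818, 74.6-179.9 and 245-754 CPM on days 0, 2 and 6, and the 4 of macrophages to 2.77-11.5 CPM. Markers of endothelial cells summed to at most 0.995 CPM and those of hepatocytes to at most 1.24 CPM in any library. Mitochondrial genes took 1.11-3.78% of the counts at day 0, 1.25-4.86% at day 2 and 1.96-9.09% at day 6.

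The droplet genes were not switched on as a block (the plot of CPM by library and day). Between day 0 and day 2, Plin1, Cidec and Fitm2 rose by far more than the others, Plin2, Plin5 and Bscl2 rose less, Plin3 fell, and Plin4 and Cideb did not pass the test. From day 2 to day 6, Plin1 and Bscl2 rose further, Cideb rose and Plin3 regained part of its loss, whereas Plin2, Plin4, Plin5 and Fitm2 fell. Of the 9 members that could be tested, 6 were called higher and 1 lower at day 2 than at day 0, where 35.8% of the 16723 genes tested were called higher and 37.5% lower. From day 2 to day 6, 4 members were called higher and 4 lower, against 31.9% and 30.1% of all genes. From day 0 to day 6, 6 members were called higher and 2 lower, against 32.9% and 35.4% of all genes. With so much of the transcriptome moving, the share of members called carries little information. The members are droplet genes chosen by name with earlier results of these data known. Their median changes therefore describe these genes and are not a test. The median log2 fold change of the 9 members was 1.53 from day 0 to day 2, against -0.02 over all genes, and 1.44 from day 0 to day 6, against -0.03. It was 0.33 from day 2 to day 6, against 0.01.

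**Figure D1:**
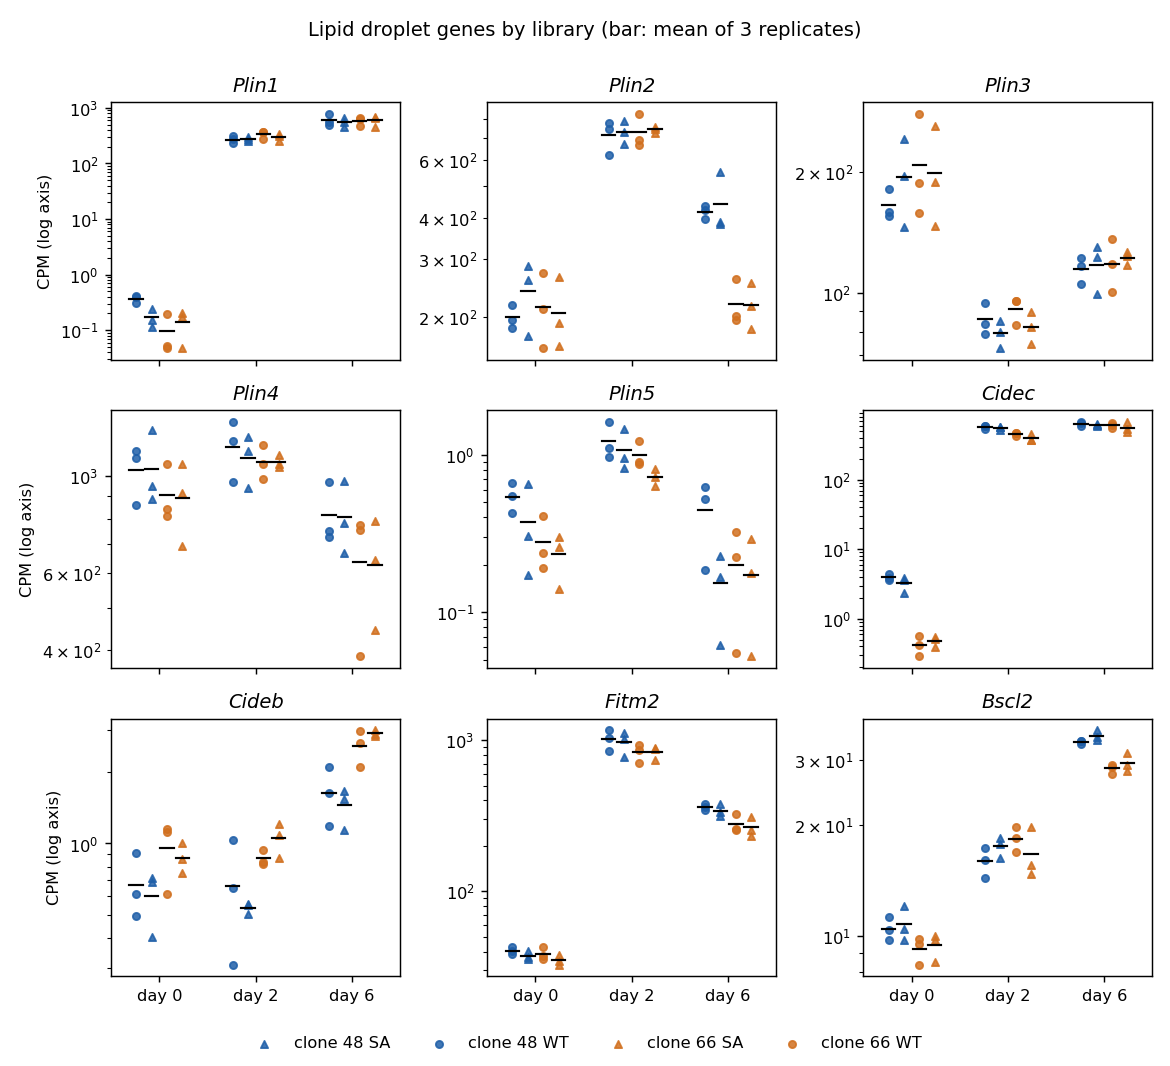
CPM of the 9 members that passed the filter on low counts, on log axes, in each of the 36 libraries by day. Colour gives the clone, the marker gives the genotype and each bar is the mean of 3 replicates. Plin1 and Cidec climb by orders of magnitude to day 2, Plin2, Plin5 and Fitm2 peak at day 2, and the genotypes of a clone overlap on each day in all panels except Plin1 at day 0 and Bscl2 at day 6 in clone 48 and Plin5 at day 2 in clone 66.

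Plin1, the perilipin that dominates the droplet coat of adipocytes and holds back lipolysis until protein kinase A phosphorylates it, had the steepest course. At day 0 the 3 RxraWT replicates of clone 48 gave 0.395, 0.303 and 0.407 CPM and the RxraSA replicates 0.243, 0.115 and 0.153. The RxraWT replicates of clone 66 gave 0.0509, 0.0478 and 0.192 CPM and the RxraSA replicates 0.200, 0.0470 and 0.173. In clone 48 the RxraWT libraries lay above the RxraSA libraries, and in clone 66 the genotypes overlapped. These were 1 to 8 read pairs per library and 45 in all, so the transcript was close to the limit of detection before differentiation. At day 2 the 12 libraries lay between 229 and 367 CPM (median 287), and at day 6 between 450.0 and 775 CPM (median 598). The days did not overlap. The log2 fold change was 10.58 (SE 0.20, adjusted p = 4.9e-31) from day 0 to day 2 and 1.00 (SE 0.12, adjusted p = 3.2e-09) from day 2 to day 6. Taken from the summed counts, 60412 at day 2 against 45 at day 0, the ratio of CPM was 1559, with an interval of 1165-2138 that covers counting error only.

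Plin2, the perilipin found in most cell types and stable only while it is bound to a droplet, was already well expressed before differentiation and rose only for a time. It lay between 161 and 286 CPM at day 0 (median 204), between 621 and 828 at day 2 (median 738) and between 184 and 552 at day 6 (median 322). Day 2 stood clear of both other days, and days 0 and 6 overlapped. The log2 fold change was 1.77 (SE 0.14, adjusted p = 8.8e-14) from day 0 to day 2 and -1.23 (SE 0.14, adjusted p = 1.0e-09) from day 2 to day 6. This left Plin2 higher at day 6 than at day 0 by 0.54 (SE 0.13, adjusted p = 0.00061) over both clones together, an average that hides the difference between the clones described further on.

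Plin3, a perilipin that moves from the cytosol onto newborn droplets, went the other way. It lay between 146 and 279.6 CPM at day 0 (median 185), between 72.7 and 95.7 at day 2 (median 83.5) and between 99.3 and 136 at day 6 (median 120.1). No 2 of the days overlapped. Plin3 changed by a log2 fold change of -1.18 (SE 0.09, adjusted p = 9.9e-14) to day 2, 0.48 (SE 0.09, adjusted p = 2.0e-05) from there to day 6, and -0.70 (SE 0.09, adjusted p = 2.4e-08) over the whole course. Plin3 was the only perilipin that was lower at day 2 than at day 0.

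Plin4, the longest perilipin, known from white fat and from small nascent droplets, was the most abundant member before differentiation by CPM and by RPKM. It lay between 694 and 1277 CPM at day 0 (median 933), between 942 and 1329.8 at day 2 (median 1094) and between 387 and 976 at day 6 (median 752). All 3 days overlapped. The rise to day 2 did not pass the test (log2 fold change 0.20, SE 0.11, adjusted p = 0.097), and it did pass under several other settings. Plin4 fell from day 2 to day 6 by 0.63 on the log2 scale (SE 0.11, adjusted p = 6.0e-06). At day 6 replicate 1 of clone 66 was low in both genotypes, with 387 CPM in RxraWT and 446 in RxraSA against 643-790.0 in the other 4 libraries of this clone.

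Plin5, the perilipin of oxidative tissues that ties droplets to mitochondria, was barely read. It had 81 counts in 12 libraries at day 0, 202 at day 2 and 53 at day 6, or 0.342, 0.991 and 0.241 CPM, with counting intervals of 0.272-0.425, 0.859-1.14 and 0.181-0.316 CPM. Libraries of day 2, at 0.635-1.61 CPM, lay above all libraries of day 6, at 0.0523-0.624 CPM, and overlapped those of day 0, at 0.141-0.661 CPM, in a narrow range. The log2 fold change was 1.53 (SE 0.21, adjusted p = 8.5e-08) from day 0 to day 2 and -2.07 (SE 0.23, adjusted p = 1.3e-09) from day 2 to day 6. The directions were those of Plin2, at a far lower level. Plin5 passed the filter on low counts chiefly through its day 2 libraries, so that the filter favoured a peak on that day. Both changes were called in the 17 alternatives that held Plin5.

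**Figure D2:**
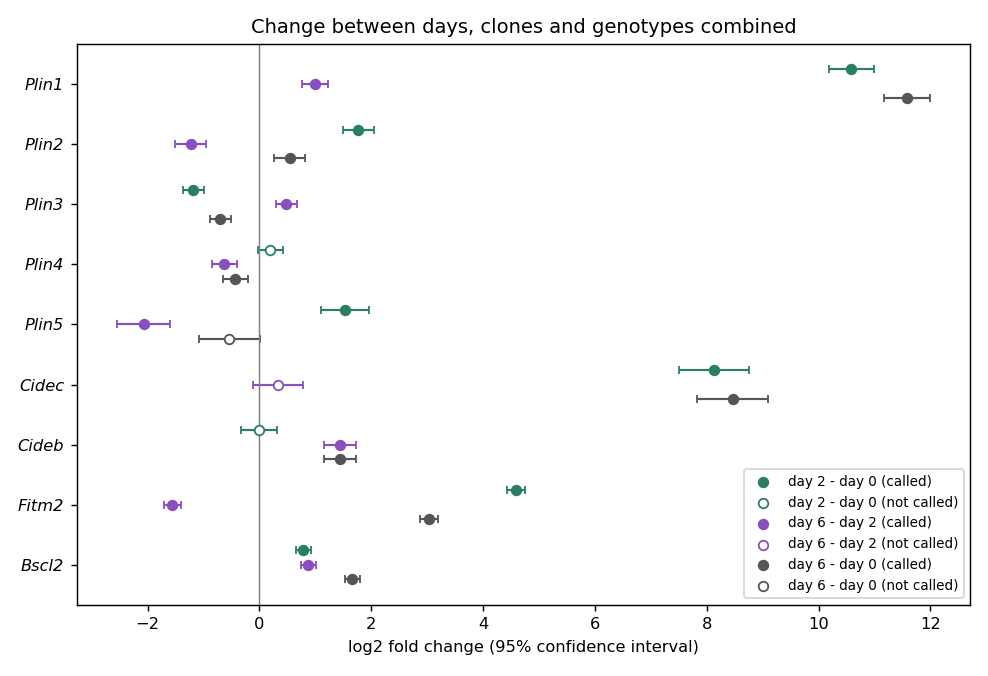
log2 fold change of each of the 9 tested members between days (x axis, with 95% confidence intervals), over both clones and both genotypes. Filled points were called at an adjusted p under 0.05 in edgeR's quasi-likelihood test. Plin1, Cidec and Fitm2 stand apart at day 2 with 10.58, 8.13 and 4.59, and Plin2, Plin4, Plin5 and Fitm2 lie below 0 from day 2 to day 6.

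The make-up of the coat therefore changed with time. As shares of the summed RPKM of the 5 perilipins, Plin4 held 60.0% ± 3.4 at day 0 (SD, n = 12), Plin2 21.9% ± 1.8 and Plin3 18.1% ± 2.2, and Plin1 held 0.0153%. At day 2 Plin2 held 42.8% ± 3.6, Plin4 39.4% ± 3.5, Plin1 13.1% ± 2.0 and Plin3 4.601% ± 0.32. At day 6 Plin1 held 34.0% ± 5.5, Plin4 32.9% ± 4.2, Plin2 24.4% ± 7.5 and Plin3 8.57% ± 2.0. Over both clones together the transcripts thus moved from Plin4 with Plin2 and Plin3, through Plin2 with Plin4, to a mixture led by Plin1 and Plin4. At day 6 clone 48 alone held 33.5% Plin4, 29.6% Plin1 and 29.5% Plin2, and clone 66 held 32.4%, 38.5% and 19.3%. The shares of Plin1 and Plin4 at day 6 were thus similar only over both clones together. The ratio of Plin1 to Plin4 RPKM was then 0.837-0.990 in clone 48 and 1.03-1.52 in clone 66. Plin5 held 0.099% at most on average. The ratio of Plin1 to Plin2 RPKM, which compares the coat of adipocytes with the general one, was 0.000717 ± 0.000491, 0.308 ± 0.0612 and 1.59 ± 0.724 (SD, n = 12) on days 0, 2 and 6. These shares and ratios rest on summed exon lengths. With the length of the longest protein-coding transcript of each gene, Plin4 held 50.3% at day 0, Plin2 held 54.6% at day 2, and at day 6 Plin1 held 39.2%, Plin2 31.5% and Plin4 23.1%. Mean Plin1 RPKM with that length was above mean Plin4 RPKM at day 6 in both clones and both genotypes. All these values describe messenger RNA, not protein on the droplet.

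**Figure D3:**
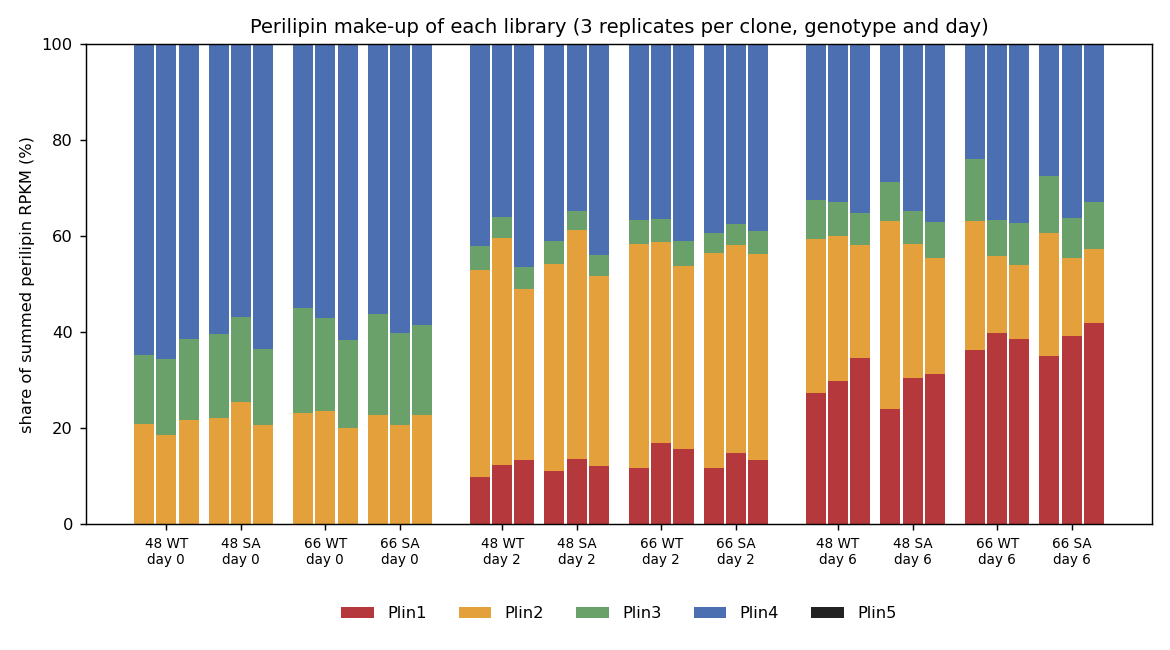
Share of each perilipin in the summed perilipin RPKM (y axis, percent) of each library, with 3 replicates side by side per clone, genotype and day. Plin4 makes up most of the bar at day 0, Plin2 grows at day 2, and Plin1 reaches 24.1-34.7% in clone 48 and 35.1-41.9% in clone 66 at day 6. Plin1 at day 0 and Plin5 on all days are too small to see.

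Cidec, also called FSP27, which drives droplet fusion in white fat, went from near silence to the top of the list. In clone 48 its RxraWT replicates gave 3.90, 3.63 and 4.48 CPM at day 0 and its RxraSA replicates 3.89, 2.35 and 3.58. In clone 66 the RxraWT replicates gave 0.560, 0.287 and 0.422 CPM and the RxraSA replicates 0.550, 0.517 and 0.388. Every library of clone 48 lay above every library of clone 66. At day 2 the clones still did not overlap, at 513-592 CPM in clone 48 (median 572) and 369.8-465 CPM in clone 66 (median 443). At day 6 they did, at 587-674 CPM (median 615) and 483-667 CPM (median 583). Over both clones the log2 fold change from day 0 to day 2 was 8.13 (SE 0.31, adjusted p = 2.8e-22). The change from day 2 to day 6, 0.33 (SE 0.22, adjusted p = 0.19), did not pass the test in the model with 1 clone term, and did pass, at 0.31 (adjusted p = 0.00042), when each clone had its own coefficients, an alternative added after the data had been seen.

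Cideb, the CIDE protein of liver that loads lipid onto secreted lipoproteins, stayed low. It lay between 0.405 and 1.15 CPM at day 0 (median 0.734), between 0.310 and 1.21 at day 2 (median 0.829) and between 1.14 and 2.99 at day 6 (median 2.09), from 5 to 65 counts per library. Its log2 fold change was -0.01 (SE 0.15, adjusted p = 0.99) to day 2 and 1.44 (SE 0.14, adjusted p = 7.5e-11) from day 2 to day 6. Cidec RPKM exceeded Cideb RPKM 601-fold on average at day 2 and 256-fold at day 6. Exons of Nop9 on the opposite strand cover 1136 bases, or 76.3%, of the exon length of Cideb, and the level of Cideb is uncertain, since reads were counted without regard to strand and pairs matching both genes were dropped. Pairs dropped in the shared part lower the RPKM of Cideb, which uses the full exon length. The ratios of Cidec to Cideb may therefore be too high. Nop9 itself went from 38.2 CPM to 64.7 and back to 41.6, and its part in the course of Cideb was not tested.

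Fitm2, the FIT protein present in most tissues and needed for fat droplets in adipocytes, rose strongly and then fell in part. It lay between 32.8 and 43.0 CPM at day 0 (median 37.7), between 708 and 1167 at day 2 (median 879) and between 232 and 377 at day 6 (median 319). No 2 of the days overlapped. The log2 fold change was 4.59 (SE 0.08, adjusted p = 3.0e-31) to day 2, the tightest estimate among the 3 strong risers, and -1.56 (SE 0.07, adjusted p = 3.6e-19) from day 2 to day 6, which left it 3.03 (SE 0.08) above day 0. The antisense gene 2310001K24Rik shares 227 bases, or 5.72%, of the exon length of Fitm2, and its own log2 fold change to day 2 was 4.06 at a level of 6.16 CPM. Read pairs that matched both genes were dropped in the counting.

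Fitm1, the FIT protein of skeletal and heart muscle, had 11 counts in the 36 libraries. A count was found in 10 libraries and never more than 2 in a library, which gives 0.0167 CPM over all libraries (counting interval 0.00832-0.0298). It did not pass the filter on low counts and was not tested. The 6 markers of skeletal muscle summed to 0.260-11.8 CPM in the libraries.

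Bscl2, whose loss causes congenital generalized lipodystrophy, climbed evenly. It lay between 8.36 and 12.1 CPM at day 0 (median 9.78), between 14.4 and 19.8 at day 2 (median 17.1) and between 27.4 and 36.02 at day 6 (median 32.1). No 2 of the days overlapped. Bscl2 rose by 0.78 on the log2 scale (SE 0.07, adjusted p = 7.1e-13) to day 2 and 0.88 (SE 0.06, adjusted p = 6.5e-14) from day 2 to day 6. The factors that start a droplet thus followed different courses, since Fitm2 peaked at day 2 and Bscl2 was highest at day 6.

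In bulk RNA a rise in these transcripts can come from more cells that have begun to differentiate or from more RNA per cell, and the data cannot tell these apart.

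Ordered by mean RPKM, Plin4 (168) stood first at day 0, followed by Plin2 (61.3), Plin3 (50.7), Fitm2 (9.56), Bscl2 (1.69), Cidec (1.10), Cideb (0.521), Plin5 (0.171), Plin1 (0.0417) and Fitm1 (0.0121). Only Plin4 from Plin2, Plin3 from Fitm2 and Fitm2 from Bscl2 were neighbours whose ranges over the 12 libraries did not overlap. At day 2 Cidec (266), Fitm2 (231), Plin2 (208) and Plin4 (192) came first with overlapping ranges, ahead of Plin1 (63.4) and Plin3 (22.4), then Bscl2 (2.90), Cideb (0.525), Plin5 (0.482) and Fitm1 (0.00496). Of these later neighbours only Cideb and Plin5 overlapped. At day 6 Cidec (326) stood alone at the top, above Plin1 (127), Plin4 (125.0), Plin2 (92.3) and Fitm2 (78.7), whose ranges overlapped from each to the next, and below them came Plin3 (31.2), Bscl2 (5.34), Cideb (1.44), Plin5 (0.116) and Fitm1 (0.0339), of which the last neighbours overlapped as well. Over all 12 libraries of a day Plin1 moved from the ninth place to the second. In clone 48 at day 6 it stood below Plin4, at place 3 in RxraWT and place 4 in RxraSA. In clone 66 it stood at place 2 in both genotypes. With the longest protein-coding transcript as length, the order at day 0 was the same, Plin2 came first at day 2, and Plin2 stood above Plin4 at day 6. The place of Plin1 below Plin4 in clone 48 at day 6 also depended on the length. With transcript lengths Plin1 stood above Plin4 there, at 214 against 142 RPKM in RxraWT and 197 against 140 in RxraSA.

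The region just upstream of the start site is shown for the 3 members that rose most to day 2, Plin1, Cidec and Fitm2. Adipocyte genes are classically controlled by PPARγ with RXRα and by C/EBP factors, and sites outside this region were not examined. The sequences are the 250 bases before the RefSeq start site on the GRCm38.p6 assembly, all from the minus strand and written 5′ to 3′. Capitals mark matches to the C/EBP core TTGCNNAA, searched on both strands and found in 9.56% of 32851 RefSeq promoters of this length.
Plin1, chr7:79732777-79733026: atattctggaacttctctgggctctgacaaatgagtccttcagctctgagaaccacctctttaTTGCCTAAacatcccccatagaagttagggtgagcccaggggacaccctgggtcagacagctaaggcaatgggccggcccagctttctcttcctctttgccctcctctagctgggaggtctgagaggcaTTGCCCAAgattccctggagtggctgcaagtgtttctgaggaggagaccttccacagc
Cidec, first RefSeq start, chr6:113435761-113436010: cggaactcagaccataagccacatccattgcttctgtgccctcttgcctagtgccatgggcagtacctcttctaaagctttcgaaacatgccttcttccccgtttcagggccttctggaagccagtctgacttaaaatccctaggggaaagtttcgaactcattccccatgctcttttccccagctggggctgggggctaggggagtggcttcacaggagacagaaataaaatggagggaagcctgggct
Cidec, second RefSeq start, chr6:113434765-113435014: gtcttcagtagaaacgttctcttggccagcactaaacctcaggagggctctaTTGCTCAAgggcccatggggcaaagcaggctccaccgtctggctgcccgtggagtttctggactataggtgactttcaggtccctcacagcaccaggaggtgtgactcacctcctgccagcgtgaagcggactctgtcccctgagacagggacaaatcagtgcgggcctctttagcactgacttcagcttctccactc
Fitm2, chr2:163472630-163472879: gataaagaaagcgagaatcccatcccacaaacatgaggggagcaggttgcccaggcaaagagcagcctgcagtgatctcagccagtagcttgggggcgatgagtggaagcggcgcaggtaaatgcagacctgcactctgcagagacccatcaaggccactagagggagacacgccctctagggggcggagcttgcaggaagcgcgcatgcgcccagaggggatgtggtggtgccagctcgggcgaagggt
Plin1 held the motif at positions -187 to -180 and -58 to -51 relative to the start, the upstream promoter of Cidec held none and the second held it at -198 to -191, and Fitm2 held none. Both starts of Cidec, and the starts of Plin1 and Fitm2 shown, are also 5′ ends of transcripts in the GENCODE annotation used for counting. All 10 members had at least 1 of 14 promoters in the RefSeq table. The nuclear receptor element AGGTCA, which 14% of all these promoters hold, was found in 1 promoter each of Plin2, Plin5 and Bscl2, which were not the strong risers. The same element repeated with 1 base between (AGGTCANAGGTCA), as PPARγ and RXRα bind it, was found in 0 of the 14 and in 0.0335% of all promoters. CACGTG was found in 0 of the 14 and in 6.02% of all, and TATAAA in 1, that of Cideb, and in 12.4% of all. These matches describe letters in this window and not binding.

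The same question was put to lists of other droplet genes and of regulators, chosen with earlier results of these data known. Their counts stand beside the shares of all genes tested. At day 2 against day 0, 35.8% of all genes were called higher and 37.5% lower, with a median log2 fold change of -0.02. For day 6 against day 2 the shares were 31.9% and 30.1% (median 0.01), and for day 6 against day 0 32.9% and 35.4% (median -0.03). Of 14 tested genes of the droplet surface and lipolysis, 11 were called higher and 2 lower at day 2 than at day 0, with a median log2 fold change of 2.35. The monoglyceride lipase gene Mgll (8.32) and G0s2 (7.75), an inhibitor of adipose triglyceride lipase, rose most, although Mgll lay between 0 and 0.162 CPM at day 0 and its fitted value therefore depends on the prior count, and Mettl7a1 (-2.47) and Hsd17b11 (-0.64) fell. Between days 2 and 6, 6 were called higher, led by Mettl7b (6.68), which lay between 0 and 0.278 CPM at day 2, and Pnpla3 (6.22), and 6 lower, led by Abhd5 (-1.69), which encodes the lipase co-activator that Plin1 holds, and Pnpla2 (-1.16), which encodes that lipase. From day 0 to day 6, 12 were called higher, led by Mgll (11.84) and G0s2 (9.93), and Hsd17b11 (-0.61) and Faf2 (-0.16) lower, with a median of 3.51.

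Of 13 tested genes of triglyceride synthesis, which fills the droplet, 9 were called higher and 4 lower at day 2, with a median of 1.41. The glycerol-phosphate acyltransferase gene Gpat3 (7.28) and the acyl-CoA synthetase gene Acsl1 (6.90) rose most, and Lpin3 (-2.30) and Acsl3 (-1.07) fell most. Between days 2 and 6 these turned, with 5 called higher, led by Lpin3 (1.79) and Acsl3 (1.31), and 6 lower, led by Gpat3 (-2.03) and Acsl1 (-1.44). Over the whole course 11 were called higher, led by Acsl1 (5.46) and Gpat3 (5.25), and Lpin3 (-0.52) and Lpin2 (-0.40) were called lower.

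Genes of droplet emergence, membrane contacts and the phospholipid layer moved less. Of 14 tested, 10 were called higher and 1 lower at day 2, with a median of 0.38. Tbc1d20 (1.39) and the phosphatidylcholine synthesis gene Pemt (1.21) rose most and Pcyt1a (-0.42), which controls the other route to phosphatidylcholine, fell. Between days 2 and 6, 5 were called higher, led by Clstn3 (4.68) and Vps13c (1.41), and 2 lower, Tbc1d20 (-0.60) and Rab3gap1 (-0.35). From day 0 to day 6, 10 were called higher, led by Clstn3 (5.44) and Pemt (2.39), and Pcyt1a (-0.33) was the 1 called lower, with a median of 0.38. Among 5 tested regulators, all 5 were called higher at day 2, led by Cebpa (5.10) and Cebpb (2.85), with a median of 2.41. After day 2 Pparg (0.38) was called higher and 3 were called lower, led by Rxra (-1.15), whose reads come from the retroviral gene and the edited locus together, and Cebpb (-0.88). From day 0 to day 6 all 5 were called higher, led by Cebpa (4.53) and Pparg (2.80).

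The genes with the profile most like each member over the 36 libraries were picked by the root mean square difference of centred log2 CPM. That they share the course of their member follows from this choice. For Plin1 they were Adig (0.88), an adipocyte gene, the receptor gene Ffar2 (0.91) and the complement gene C3 (1.04), where the profile of Plin1 itself has a root mean square of 4.99. For Cidec they were the glycerol-3-phosphate dehydrogenase gene Gpd1 (0.95), G0s2 (0.96) and Ffar2 (0.97). For Fitm2 they were Abhd5 (0.32), Apmap (0.33) and Slc16a10 (0.39), so that a gene of the lipolysis list had the profile nearest to that of a gene of droplet budding. For Plin2 they were Psma6 (0.29), Mrps22 (0.29) and Snora17 (0.30). For Plin3 the nearest was Abhd4 (0.16), for Plin4 Tnks (0.21), for Plin5 Esyt2 (0.47), for Cideb Acadsb (0.36) and for Bscl2 Ube2q2 (0.19). These values describe likeness over libraries that share day and clone.

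The clones differed in a few members. At day 0, 1 of 9 was called, Cidec, lower in clone 66, where 12.6% of all genes were called higher in clone 66 and 11.1% lower. At day 2, Cidec was called lower and Cideb higher in clone 66, where 14.5% and 15.5% of all genes were called higher and lower. At day 6, Cideb was called higher and Plin2, Fitm2 and Bscl2 lower in clone 66, where 13.4% and 12.8% of all genes were called higher and lower. The libraries of the clones overlapped in Plin1, Plin3, Plin4 and Plin5 on each day. These tests took RxraWT and RxraSA libraries as separate, although those with the same replicate number deviated together. With the counts of each such pair summed, which leaves 3 values per clone and day and was an alternative added after the data had been seen, Cidec at day 0 and Plin2 and Cideb at day 6 were still called. Cidec (adjusted p = 0.0541) and Cideb (adjusted p = 0.0541) at day 2 and Fitm2 (adjusted p = 0.112) and Bscl2 (adjusted p = 0.208) at day 6 were then not called, and 2016, 2971 and 2373 genes were called on days 0, 2 and 6 in place of 3956, 5011 and 4382.

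For Cidec the log2 difference of clone 66 from clone 48 shrank from -2.98 (SE 0.15, adjusted p = 2.0e-15) at day 0 to -0.40 (SE 0.10, adjusted p = 0.0028) at day 2 and -0.09 (SE 0.10, adjusted p = 0.57) at day 6. The rise to day 2 was thus 7.28 (SE 0.13) in clone 48 and 9.86 (SE 0.16) in clone 66. The difference between these rises, 2.59 (SE 0.18, adjusted p = 4.3e-11), was called, and Cidec was the 1 member of 9 called in this interaction, where 6.84% of all genes were called. With the summed pairs it was 2.61 (SE 0.22, adjusted p = 1.3e-05) and 281 genes were called in place of 1144, and with the replicate number as a block 2248 were. The clones therefore began apart and ended with overlapping levels. The summed adipocyte markers moved in the same direction at day 0, at 846-1351 CPM in clone 48 and 497-686 CPM in clone 66. So did the summed brown fat markers given above, a sum to which Ebf2 gave far more in clone 48 than in clone 66. Rxra was also lower in clone 66 at day 0, at a mean of 131 CPM against 191 in clone 48. Its log2 difference was -0.54 (SE 0.16, adjusted p = 0.012 in edgeR), and it was not called at day 2 (adjusted p = 0.66) or day 6 (adjusted p = 0.096). The part of Rxra or of either sum in the difference of Cidec was not tested.

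Plin2 did the reverse. At day 6 its RxraWT replicates gave 436, 422 and 397 CPM in clone 48 and 261, 202 and 195 in clone 66. The RxraSA replicates gave 552, 383 and 388 CPM in clone 48 and 254, 217 and 184 in clone 66. The lowest library of clone 48 was above the highest of clone 66, whereas the clones overlapped at day 0 and at day 2. The log2 difference of clone 66 from clone 48 was -0.06 (adjusted p = 0.83), 0.03 (adjusted p = 0.91) and -0.97 (SE 0.14, adjusted p = 3.0e-06) at days 0, 2 and 6. From day 2 to day 6 Plin2 changed by -0.75 (SE 0.14) in clone 48 and by -1.75 (SE 0.14) in clone 66, and the difference of -0.999 (SE 0.19, adjusted p = 0.0010) was called, the 1 member of 9 where 6.18% of all genes were called. With the summed pairs this difference was -1.01 (SE 0.25, adjusted p = 0.0522) and was not called, with 256 genes called in place of 1033, and with the replicate block 2082 were. At day 6 Plin2 was therefore above its day 0 level in clone 48, by 0.97 (SE 0.14, adjusted p = 5.2e-07), and near it in clone 66, by 0.05 (SE 0.14, adjusted p = 0.75). The summed adipocyte markers were also higher in clone 48 at day 6, at 11779-14493 CPM against 9001-11740 CPM in clone 66. So were the summed brown fat markers, of which Ebf2 was far higher in clone 48. Mitochondrial genes took 1.96-6.71% of the counts of clone 48 and 2.35-9.09% of those of clone 66 on that day. The part of any of these in the difference was not tested.

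Cideb was higher in clone 66 by 0.68 (SE 0.23, adjusted p = 0.026) at day 2 and 0.82 (SE 0.18, adjusted p = 0.00093) at day 6, with overlapping libraries on both days. Fitm2 was lower in clone 66 at day 6 by a log2 difference of -0.37 (SE 0.10, adjusted p = 0.0068), with overlap. Bscl2 was lower by -0.24 (SE 0.08, adjusted p = 0.028) without overlap, at 33.01-36.02 CPM in clone 48 and 27.4-31.2 CPM in clone 66. The calls of Cideb at day 2 and of Fitm2 and Bscl2 at day 6 did not hold when some replicates were left out. In the perilipin coat of day 6, Plin1 had a share of 29.6% in clone 48 and 38.5% in clone 66, a difference of 8.87 percentage points (exact permutation test, two-sided, p = 0.00216, the smallest p that 12 separate libraries allow, adjusted p = 0.013 over 6 tests of shares). With 1 mean per pair of same-numbered libraries, p was 0.1, the smallest that 3 against 3 allow (exact permutation test, two-sided, adjusted p = 0.3). The call was also lost without clone 66 replicate 2 or 3 (adjusted p = 0.0571, exact permutation test). The level of Plin1 itself did not pass the test between clones on that day (log2 difference 0.04, adjusted p = 0.87), and the share of Plin2 was 29.5% in clone 48 and 19.3% in clone 66. The share of Plin4 at day 0 differed by -3.91 points between clones (exact permutation test, two-sided, p = 0.0476, adjusted p = 0.143), and that of Plin2 at day 2 by 0.305 points (p = 0.90, exact permutation test).

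Within each clone the courses had the same directions in all members called in both. From day 0 to day 2, 7 of 9 members were called in either clone, where 65.3% of all genes were called in clone 48 and 61.6% in clone 66. From day 2 to day 6, 8 were called in clone 48 and 9 in clone 66, where 51.1% and 50.5% of all genes were called. From day 0 to day 6, 7 were called in either clone, where 56.3% and 57.7% of all genes were called.

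**Figure D4:**
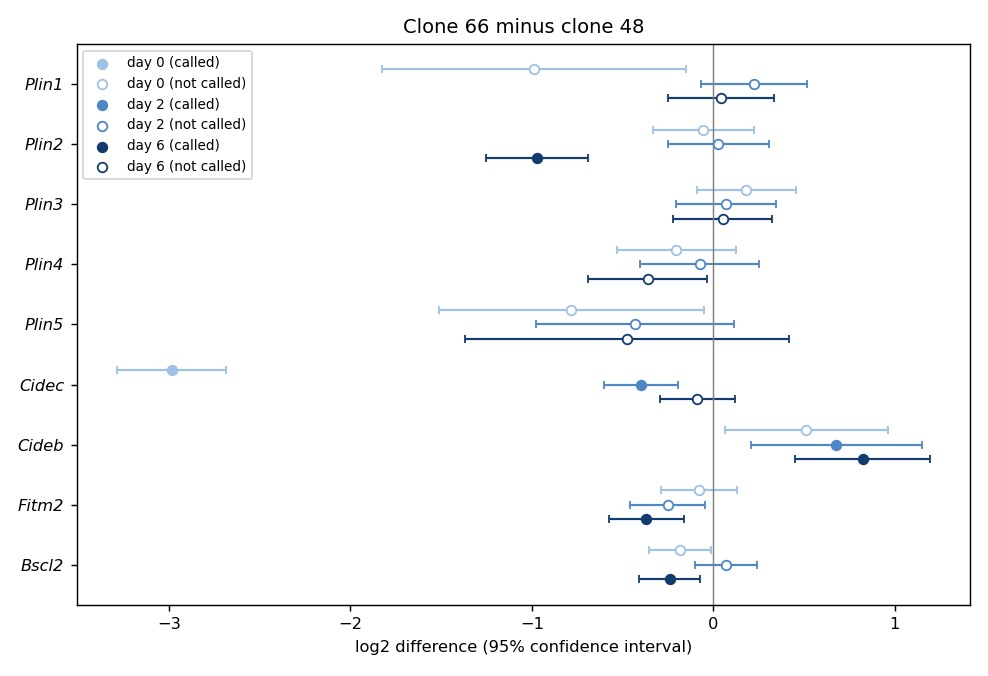
log2 difference of clone 66 from clone 48 for each of the 9 tested members (x axis, with 95% confidence intervals) on days 0, 2 and 6. Filled points were called at an adjusted p under 0.05. Cidec moves from -2.98 towards 0 over the 3 days, Plin2 moves from -0.06 to -0.97, and Cideb lies above 0 throughout.

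Replacement of the serine of RXRα did not produce a called difference in any droplet gene. In RxraSA against RxraWT, 0 of 9 members were called at day 0, 0 at day 2 and 0 at day 6, where edgeR called 0% of all genes on each of the 3 days, with 139, 162 and 125 genes at an unadjusted p under 0.05. DESeq2 likewise called 0 genes on each day, with 116, 130 and 101 at an unadjusted p under 0.05. RxraWT and RxraSA libraries overlapped for each of the 9 members on each day over both clones. Within clone 48, Plin1 at day 0 did not overlap, with a log2 difference of -1.16 (SE 0.51, unadjusted p = 0.0354 and adjusted p = 0.90 in edgeR) from 2 to 8 counts per library. At day 6 the log2 difference was -0.05 for Plin1 (95% interval -0.38 to 0.28), 0.04 for Plin2 (-0.34 to 0.42), 0.04 for Plin3 (-0.22 to 0.30) and -0.02 for Plin4 (-0.33 to 0.29). It was -0.10 for Cidec (-0.72 to 0.53), 0.02 for Cideb (-0.34 to 0.39), -0.07 for Fitm2 (-0.28 to 0.13) and 0.05 for Bscl2 (-0.13 to 0.24). These intervals leave room for differences of up to 0.24 on the log2 scale for Bscl2 and up to 0.72 for Cidec. They come from the model with 1 clone term for all days. The clone difference of Cidec changed with the day, which that term cannot follow, so the intervals of Cidec also hold this misfit. At day 2, on the way up, the difference was -0.08 for Plin1 (-0.41 to 0.25), 0.03 for Plin2 (-0.35 to 0.41), -0.12 for Cidec (-0.74 to 0.51) and -0.04 for Fitm2 (-0.24 to 0.17).

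Plin5 had the lowest p of the members at day 6, at an unadjusted p of 0.0351 and an adjusted p of 1 in edgeR. Its RxraWT replicates gave 0.187, 0.524 and 0.624 CPM in clone 48 and 0.226, 0.322 and 0.0551 in clone 66. The RxraSA replicates gave 0.167, 0.0615 and 0.229 CPM in clone 48 and 0.290, 0.0523 and 0.178 in clone 66. These are 1 to 11 counts per library, and the genotypes overlap in both clones. The log2 difference of -0.89 (-1.71 to -0.07) was -1.50 (SE 0.57) in clone 48 and -0.19 (SE 0.62) in clone 66, and the difference between these was not called (adjusted p = 1).

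The course in time was not called different between the genotypes either. In the interaction of genotype and time, 0 of 9 members were called from day 0 to day 2 and 0 from day 2 to day 6, where 0% of all genes were called in both, with 144 and 153 genes at an unadjusted p under 0.05. The rise of Plin1 to day 2 was 10.33 (SE 0.27) in RxraWT and 10.84 (SE 0.28) in RxraSA, and that of Cidec 8.07 (SE 0.43) and 8.19 (SE 0.44). That of Fitm2 was 4.55 (SE 0.12) and 4.63 (SE 0.12). An effect of the genotype that differed between the clones was called for 0 of 9 members at days 0, 2 and 6, where 0% of all genes were called on each day, with 283, 214 and 200 at an unadjusted p under 0.05. The share of Plin1 in the coat at day 6 was 34.4% in RxraWT and 33.7% in RxraSA (exact permutation test within clones, two-sided, p = 0.69). Shares of Plin4 at day 0 and Plin2 at day 2 differed between the genotypes by -1.62 and 1.49 points (p = 0.375 and p = 0.515, exact permutation test). The lists of other droplet genes and of regulators likewise held 0 called genes in RxraSA against RxraWT on each day.

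**Figure D5:**
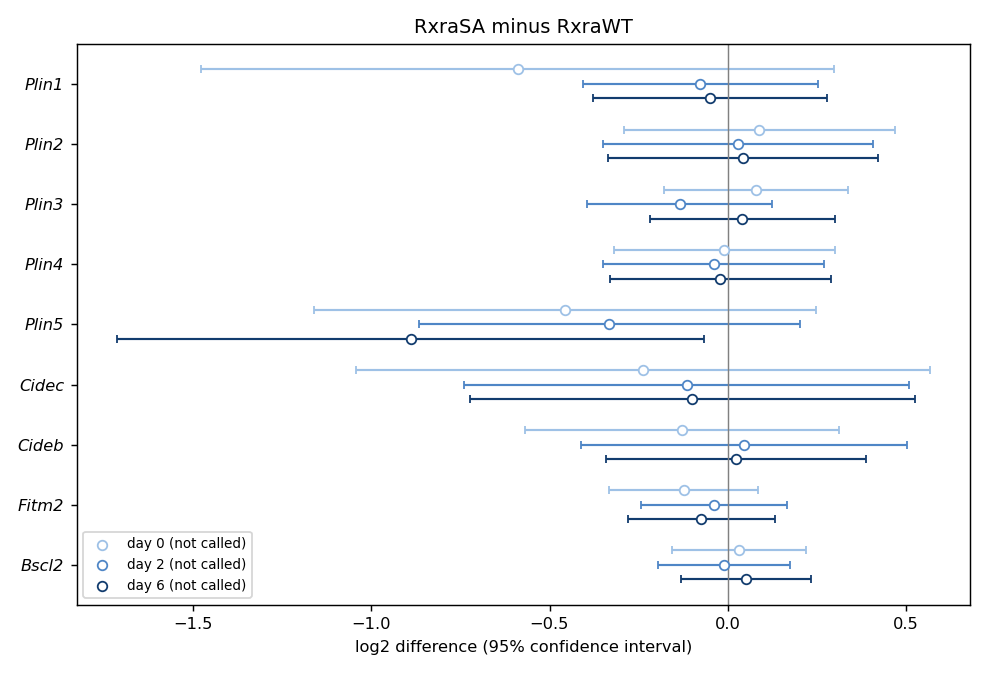
log2 difference of RxraSA from RxraWT for each of the 9 tested members (x axis, with 95% confidence intervals) on days 0, 2 and 6. Open points were not called, and all points are open. The intervals of Bscl2, Fitm2 and Plin3 are narrow around 0, and those of Plin1 at day 0 and of Plin5, which rest on few counts, are wide.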

How the data were processed

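Gene counts of 36 RNA sequencing libraries were analysed. The counts were deposited by the authors without normalization: per the labels and the study's methods they made them from stranded, paired-end total RNA reads aligned with STAR 2.7.0d to mm10 and counted on GENCODE M21 exons with featureCounts 1.6.2, as read pairs, without strand and without pairs that matched several genes or places. Overlapping genes are therefore uncertain.

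Counts were filtered with filterByExpr, which left 16723 genes, scaled by TMM and fitted in edgeR 4.0.16 (R 4.3.3) by the quasi-likelihood test in its earlier form, with a coefficient per genotype and day plus a clone term. Comparisons between clones used 12 coefficients, 1 per clone, genotype and day. Genes with a Benjamini-Hochberg adjusted p under 0.05 over all genes tested were called, and every adjusted p of a single gene is from this test. CPM used TMM-scaled library sizes, and RPKM divided CPM by the summed exon length. Perilipin shares were compared by exact permutation of libraries, within clones for the genotype. Intervals of summed counts are exact Poisson intervals and cover counting error only. Total counts of 11351078 to 24349263 per library limit the precision for Plin5, Cideb, Fitm1 and, at day 0, Plin1.

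The members and the lists were chosen with earlier results of these data known. All 10 members are named in every comparison they entered, and of each list up to 2 genes per direction with the largest change between days. Likeness named the 3 genes with the smallest root mean square difference among those whose mean log2 CPM reached 1. Groups, replicate numbers and pools were taken from the sample labels. The deposited description calls the replicates technical and the paper calls them independent, so the p-values measure the spread between these libraries. Same-numbered libraries of RxraWT and RxraSA deviated together, with correlations of 0.176 to 0.930 (median 0.827) in 18 pairs over 9381 genes, and a fit with the replicate number as a block was an alternative. Others were no filter, RLE factors, a minimum of 1 CPM in 6 libraries, library size alone, edgeR's version 4 test, no clone term, the compared days alone, DESeq2 1.42.0, and each replicate left out. Sums or means of same-numbered RxraWT and RxraSA libraries for the comparisons of clones and the shares, clone-specific coefficients for the days, transcript lengths, and the omission of the libraries over 5% mitochondrial counts were alternatives chosen after seeing the data. On simulated counts, the test of RxraSA against RxraWT at day 6 recovered 26.9%, 63.4% and 96.7% of genes changed by 0.5, 1 and 2 on the log2 scale, among 16525 genes run. The simulated libraries were drawn independently, without the shared deviation of same-numbered libraries, so recovery in the real libraries may differ. Promoter sequences came from RefSeq. Lipid stainings, immunoblots and qPCR values were not analysed here.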

Additional observations from a re-analysis of the deposited data

Results flagged for a closer look

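Among 60 groups of 6 libraries of 1 genotype and day, a member lay far from the other 5 libraries in 4. The rule flags about 1 in 20 groups of normally distributed values, a rate that does not apply to counts near 0. Plin3 was at 279.6 CPM in RxraWT replicate 1 of clone 66 at day 0 and at 156-188 CPM in the other RxraWT libraries of that day. RxraSA replicate 1 of clone 48 and of clone 66 were also the highest RxraSA libraries, at 243 and 261 CPM. Plin5 was at 0.648 CPM, or 8 counts, in RxraSA replicate 1 of clone 48 at day 0 and at 0.141-0.307 CPM in the other 5. Fitm1 was at 0.0509 CPM in RxraWT replicate 3 of clone 48 at day 0 and at 0.0578 CPM in RxraSA replicate 2 of clone 66 at day 2, which is 1 count in each, with 0 counts in the other 5 libraries. Any such group is flagged by the rule, so these flags carry no information.

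The clones differed in the course of 2 members by a test of the difference itself. The rise of Cidec from day 0 to day 2 was larger in clone 66 than in clone 48 by 2.59 on the log2 scale. The change of Plin2 from day 2 to day 6 differed between clone 66 and clone 48 by -0.999, and this was not called (adjusted p = 0.0522 in edgeR) when the counts of same-numbered RxraWT and RxraSA libraries were summed. Clone and pool cannot be told apart in either.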

How the results depend on the processing

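Of 2377 values of members under the alternatives, 2344 kept their direction and side of the threshold or were called in neither fit, 19 were no longer called, 14 were newly called and 0 reversed a call. In 128 values that were called in neither fit the sign differed. Of 32 called values, 27 were called under every alternative run. The exceptions were Cidec and Cideb between clones at day 2, called in all but 1 and 6 of 16 alternatives, Fitm2 and Bscl2 between clones at day 6, called in all but 4 and 7 of 16, and Plin2 in the interaction of clone and time from day 2 to day 6, called in all but 1 of 17.

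The members called between clones numbered 1 to 2 at day 0, 1 to 3 at day 2 and 2 to 4 at day 6 when a replicate of 1 clone was left out. At day 0, Plin1 was newly called without clone 66 replicate 3 (-1.57). At day 2, Cideb was not called without the filter, which left 1 member called, nor without clone 48 replicate 1 or 3 or clone 66 replicate 1 or 2. At day 6, Fitm2 was lost without clone 48 replicate 2 or clone 66 replicate 3, and Bscl2 without clone 48 replicate 1 or 2 or clone 66 replicate 1 or 3, and without the filter. Without the 4 libraries over 5% mitochondrial counts, which leaves clone 66 RxraSA at day 6 with 1 library assumed to vary like the others, 2622 genes in place of 4382 were called between clones at day 6, 62.4% of them higher in clone 66 in place of 51.2%. Plin4 (-0.59) was then called and Fitm2 and Bscl2 were not. The difference in the share of Plin1 between clones at day 6 ranged from 6.90 to 10.6 points when a replicate was left out. It lost its call without clone 66 replicate 2 (8.38) or 3 (7.996), at an adjusted p of 0.0571, and with 1 mean per pair of same-numbered libraries (8.87) at an adjusted p of 0.3 in the exact permutation test. With the counts of these pairs summed, an alternative added after the data had been seen, 0 members in place of 2 were called between clones at day 2 (Cidec and Cideb, both at an adjusted p of 0.0541 in edgeR), 2 in place of 4 at day 6, and 0 in place of 1 in the interaction of clone and time from day 2 to day 6 (Plin2, adjusted p = 0.0522). Over all genes 2016, 2971 and 2373 were then called between clones on days 0, 2 and 6, and 281 and 256 in the interactions to day 2 and from day 2 to day 6, of which 67.6% and 42.2% were higher in place of 52.8% and 50.9%.

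Plin4 from day 0 to day 2 was newly called without the filter (0.25), with the compared days alone (0.20), without the 4 libraries above (0.24) and without clone 66 replicate 1 (0.24). Cidec from day 2 to day 6 was newly called with the compared days alone (0.31), and Plin5 from day 0 to day 6 by library size alone (-0.72). Library size alone also called Fitm2 between clones at day 2 (-0.31) and Plin4 at day 6 (-0.43). It moved the median of all genes to -0.27 from day 0 to day 2 and to -0.22 from day 0 to day 6, with 33.6% and 34.9% of called genes higher in place of 48.9% and 48.2%, and each called member kept its direction.

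With the replicate block, 2248 and 2082 genes in place of 1144 and 1033 were called in the interaction of clone and time to day 2 and from day 2 to day 6, and leaving out a replicate gave 574 to 1315 and 537 to 1398. DESeq2 called 2 members in the latter, Plin2 and Bscl2 (-0.33). For an effect of the genotype that differed between clones at day 0, 3 genes were called with the block and 5 without the filter, and 1 gene in RxraSA against RxraWT at day 2 with a block within each day. None of these genes was a member. The replicate number as a block changed no call of a member, and it moved no other count of called genes by over 1.5 times. The cause of these changes was not tested. Lengths of the coding sequence were not run as an alternative. At this depth Fitm1 could not be tested, and small differences of Plin5 were not detectable.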
